A study of Mus musculus with 8 samples.

Results

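The genes described here are Cd44 and 8 genes that make, bind or break down hyaluronan, 9 genes of the 16382 named genes measured in mouse soleus. They were matched by gene symbol (Cd44, Has2, Has3, Hyal1, Hyal2, Cemip2, Vcan, Lyve1 and Tnfaip6), and all 9 were found in the files. The set was drawn up with earlier results of these libraries known, and Cd44 is a gene that the study itself singled out from them, so its call is no independent evidence of its direction. RNA was measured in whole soleus, a postural calf muscle, of 4 Megf10 KO and 4 WT mice, all female and 7 months old. The KO mice were homozygous for the Megf10tm1b(KOMP)Jr allele, which lacks the fourth exon in every cell (Megf10 -/- in the labels). The strain background and the place where these mice were raised were not given in the sources used here. The comparison asks which molecular changes accompany the loss of Megf10, a receptor for engulfment whose human counterpart is mutated in a myopathy.

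Hyaluronan is a long unbranched sugar polymer of the space between cells. Synthases of the Has family extrude it through the plasma membrane, hyaluronidases (Hyal1, Hyal2) and Cemip2 cut it, and cells sense it through surface receptors such as CD44 and LYVE1. Versican (Vcan) and TSG-6 (Tnfaip6) bind it and organize it into a matrix that muscle lays down during growth and repair. CD44 is found on leukocytes, fibroblasts and muscle precursors, and LYVE1 on lymphatic endothelium and on a class of tissue macrophages.

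The deposited values are gene counts normalized by the authors, and the libraries summed to between 32.3 and 33.1 M (M for mega) among KO mice and between 33.6 and 35.7 M among WT mice. Depth was recovered from the spacing of low values, which shows what a single read is worth. KO replicate 1 held 37.8 M reads, the other KO libraries held between 26.0 and 26.4 M, and the WT libraries held between 36.8 and 41.5 M. Log2 depth and genotype were correlated (r = -0.79), so their parts cannot be told apart, and a fit with depth as a covariate is given beside the results. Megf10 itself had 1.55, 7.76, 1.12 and 11.1 normalized counts across KO replicates 1 to 4, against 63.0, 57.1, 69.7 and 70.04 across WT replicates 1 to 4. Fiber genes were abundant in each library, with Acta1 at 792488 to 952285 in KO and 912633 to 999716 in WT.

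Cd44, Lyve1 and Vcan rose in Megf10 KO soleus, and none of the 9 genes was called lower. A gene was called at an adjusted p under 0.05 from limma on log2(normalized count + 1), with Benjamini-Hochberg adjustment over all 16382 genes, and every adjusted p below is limma's. By that rule 3 of 9 genes were higher in KO and 0 were lower, while over all genes 5.16% were called higher, 3.79% lower and 8.95% in either direction. The values of KO and WT libraries did not overlap for these same 3 genes, each higher in KO, and 8.63% of all genes had no overlap with KO higher (8.54% with KO lower). The log2 fold change was above 0 for 7 of 9 genes, beside 8031 of all 16382. Its median was 0.45 for the 9 genes, against -0.01 over all genes tested. All 9 genes passed the filter on low values. In bulk tissue more cells of a type and more RNA per cell cannot be told apart.

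**Figure D1:**
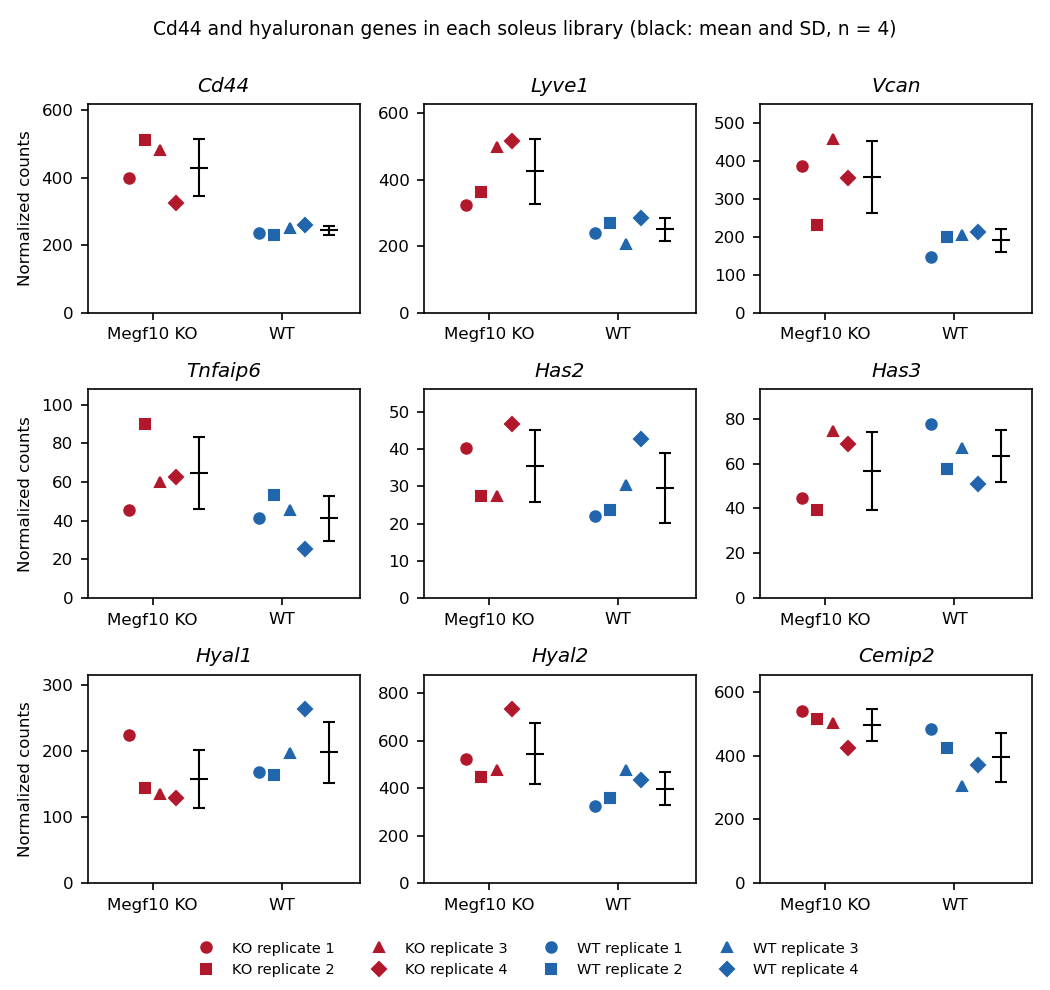
Normalized counts (y axis, from 0) of the 9 genes in each library, with 4 KO libraries on the left and 4 WT libraries on the right of each panel, 1 marker shape per replicate number, and the mean and SD in black. For Cd44, Lyve1 and Vcan each KO library lies above each WT library, and for the other genes the groups overlap.

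Cd44, the main hyaluronan receptor, was raised in each KO library. It had 399.9, 514, 482 and 325 normalized counts across KO replicates 1 to 4, against 236, 231, 251 and 259.5 across WT replicates 1 to 4. Each KO library lay above the WT libraries, KO replicate 4 the least so, and the WT libraries were close to each other. The means were 430.3 ± 84.8 in KO and 244 ± 13.3 in WT (SD, n = 4 each), a ratio of 1.76. Spread was wider in KO than in WT, at 19.7% of the mean in KO and 5.47% in WT. The log2 fold change was 0.79 (SE 0.146, 95% interval 0.47 to 1.12, limma's adjusted p = 0.00930), and an exact two-sided permutation test gave p = 0.0286, the smallest that 4 against 4 libraries can give. KO replicate 1, whose depth lay among those of WT, was at 399.9, and the part of depth in the Cd44 values was not tested. Cd44 was called in each of the 8 fits that leave out 1 library (limma's adjusted p = 0.00577 to 0.0371, log2 fold changes 0.70 to 0.92). It did not pass with depth as a covariate (log2 fold change 0.70, limma's adjusted p = 0.270) or without KO replicates 2 and 3 together (0.56, adjusted p = 0.106).

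The gene value of Cd44 sums over isoforms, of which GENCODE M21 lists 9 transcripts. Inclusion of its variable exons was therefore not analysed here. The promoter sequence of 5 of the 9 genes was matched in RefSeq (build GRCm38.p6, while the authors used GRCm39). The 250 bases before the start are shown for Cd44 (chr2:102901666-102901915, minus strand) and Vcan (chr13:89742513-89742762, minus strand), since these were the called genes with an entry. Both read 5′ to 3′, and capitals mark matches on either strand to the 8 motifs searched.
Cd44: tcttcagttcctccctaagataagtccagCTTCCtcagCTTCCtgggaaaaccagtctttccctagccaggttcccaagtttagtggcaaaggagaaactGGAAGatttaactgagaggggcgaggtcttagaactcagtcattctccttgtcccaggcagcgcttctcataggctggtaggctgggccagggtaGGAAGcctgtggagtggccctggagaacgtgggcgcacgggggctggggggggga
Vcan: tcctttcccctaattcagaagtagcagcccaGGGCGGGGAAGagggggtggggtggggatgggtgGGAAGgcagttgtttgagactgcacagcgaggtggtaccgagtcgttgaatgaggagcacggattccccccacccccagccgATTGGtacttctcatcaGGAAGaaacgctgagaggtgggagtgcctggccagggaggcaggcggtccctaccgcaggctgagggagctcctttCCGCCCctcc
The Cd44 window held 4 matches to the ETS core GGAAG, and the Vcan window held 3. That motif is short, and 64.1% of the 32851 promoter windows of the same length hold it. Vcan also held 2 matches to the GC box GGGCGG, which is in 32.7% of windows, and 1 to the CCAAT box CCAAT, which is in 33.8%. In the Vcan window 1 GC box lies next to an ETS core with no overlap. No match was found in either window to the AP-1 motif TGANTCA (in 6.75% of windows), the TATA box TATAAA (12.4%), the STAT site TTCNNNGAA (7.02%), the NF-kappaB site (1.41%) or the MyoD E-box CAGCTG (13%). Cd44 held neither a GC box nor a CCAAT box. A match is a description of letters and says nothing of a factor that binds there.

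Lyve1, the receptor that takes up hyaluronan on lymphatic endothelium and some macrophages, was higher in KO as well. It had 323, 362, 498 and 516 normalized counts across KO replicates 1 to 4, and 239.9, 269, 208 and 284 across WT replicates 1 to 4. The order of KO libraries differed from that of Cd44, with KO replicate 4 the highest for Lyve1 and the lowest for Cd44. The means were 425 ± 96.9 in KO and 250.1 ± 33.6 in WT (SD, n = 4 each), a log2 fold change of 0.74 (SE 0.172, 95% interval 0.36 to 1.12, limma's adjusted p = 0.0246; exact permutation p = 0.0286). Lyve1 missed the threshold in the fits without KO replicate 3, KO replicate 4, WT replicate 1 and WT replicate 3 (limma's adjusted p = 0.0775, 0.0639, 0.0530 and 0.0692), and with any single library left out its log2 fold change stayed between 0.64 and 0.86. With depth as a covariate its log2 fold change was 0.35 (limma's adjusted p = 0.613), and without KO replicates 2 and 3 together it was 0.71 (adjusted p = 0.143). With no variance trend the adjusted p of Lyve1 was 0.0644.

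Markers of the cell types that carry LYVE1 moved unequally. Of 6 listed markers of lymphatic endothelium (Prox1, Flt4, Pdpn, Ccl21a, Mmrn1 and Reln) none was called, and their summed level was 1808 to 2183 normalized counts in KO and 1792 to 2367 in WT. The largest share of that sum is Prox1, which slow muscle fibers also express. The groups overlapped for each of the 6. Flt4, Ccl21a and Mmrn1 had log2 fold changes of -0.20, -0.19 and -0.60 and were lowest in KO replicate 1, while Pdpn and Reln had 0.29 and 0.35 and Prox1 had 0.02. Of 10 macrophage markers 7 were higher in KO and none lower, and their summed level was 5229 to 6800 in KO, above 2966 to 4078 in WT. The 7 were C1qa, C1qb, C1qc, Cd68, Itgam, Lyz2 and Mrc1. The largest part of the macrophage sum was Lyz2 (mean 2185 in KO and 1218 in WT). Adgre1, Csf1r and Cd163 overlapped between groups and were not called. Their log2 fold changes were 0.42, 0.55 and 0.74 (limma's adjusted p = 0.311, 0.118 and 0.125). The part of these cell types in the rise of Lyve1 and Cd44 was not tested. No marker of either list was at 0 in any library. Among the other lists, 4 of 5 adipocyte markers were higher in KO (Adipoq, Cidec, Lep and Plin1) and 2 of 7 markers of blood endothelium were lower (Cdh5 and Tie1). Of 6 satellite cell markers Pax7, which marks muscle stem cells, was lower (log2 fold change -1.60, limma's adjusted p = 0.0203), and the summed level of that list was 2951 to 3690 in KO and 2937 to 4234 in WT. Most of that sum came from Sdc4 (mean 2355 in KO and 2112 in WT) and Cdh15 (870 and 888), with Pax7 at 55.1 and 156. Myf5 was lower in KO with no overlap but did not pass (log2 fold change -0.58, limma's adjusted p = 0.101). For Calcr, Vcam1, Sdc4 and Cdh15 the groups overlapped. Of 8 fiber markers Tnni1 was higher and Ckm and Myh2 were lower. No marker of Schwann cells or of T and B lymphocytes was called. The part of these cells in the rise of Cd44 was not tested either.

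Vcan, the large proteoglycan that binds hyaluronan through its N-terminal domain, had the largest log2 fold change of the 9 genes. Its values were 388, 232, 458 and 357 normalized counts across KO replicates 1 to 4, against 147, 199, 206 and 214 across WT replicates 1 to 4. The gap between the groups was narrow, since KO replicate 2 at 232 lay close to WT replicate 4 at 214, and the other KO libraries were clearly higher. Means were 359 ± 94.4 in KO and 191 ± 30.5 in WT (SD, n = 4 each), with a log2 fold change of 0.88 (SE 0.207, 95% interval 0.42 to 1.33, limma's adjusted p = 0.0270; exact permutation p = 0.0286). Vcan missed the threshold in the fits without KO replicate 1, KO replicate 3, KO replicate 4, WT replicate 1 and WT replicate 3 (limma's adjusted p = 0.0623, 0.0785, 0.0624, 0.0597 and 0.0541). Its log2 fold change was 0.74 to 1.07 over the 8 fits without 1 library. With depth as a covariate it was 1.11 (limma's adjusted p = 0.205), and without KO replicates 2 and 3 together 0.97 (adjusted p = 0.0570). With no variance trend the adjusted p of Vcan was 0.0708.

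Matrix-producing cells also had markers that differed. Of 10 markers of fibroblasts and fibro-adipogenic progenitors 3 were called higher in KO (Col1a1, Col3a1 and Gsn) and none lower. The summed level of the list was 54209 to 76499 normalized counts in KO, above 37942 to 46554 in WT. The largest part of that sum was Gsn (mean 31589 in KO and 20746 in WT), so the sum mostly repeats the called genes. Among the markers not called, Lum did not overlap between groups, while Pdgfra, Dcn, Pi16, Dpp4, Cd34 and Clec3b did. Pdgfra, which defines these progenitors, had a log2 fold change of 0.37 (limma's adjusted p = 0.174), and Dcn one of 0.05 (adjusted p = 0.777). Of 5 tendon cell markers Thbs4 was called higher, although its groups overlapped (log2 fold change 0.97, limma's adjusted p = 0.0117). Scx was higher in KO with no overlap but did not pass (log2 fold change 0.50, limma's adjusted p = 0.0567). Tnmd, Mkx and Fmod overlapped and were not called. The summed level of the tendon list overlapped, at 10211 to 16647 in KO and 7208 to 11559 in WT. The part of these cells in the rise of Vcan was not tested.

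**Figure D2:**
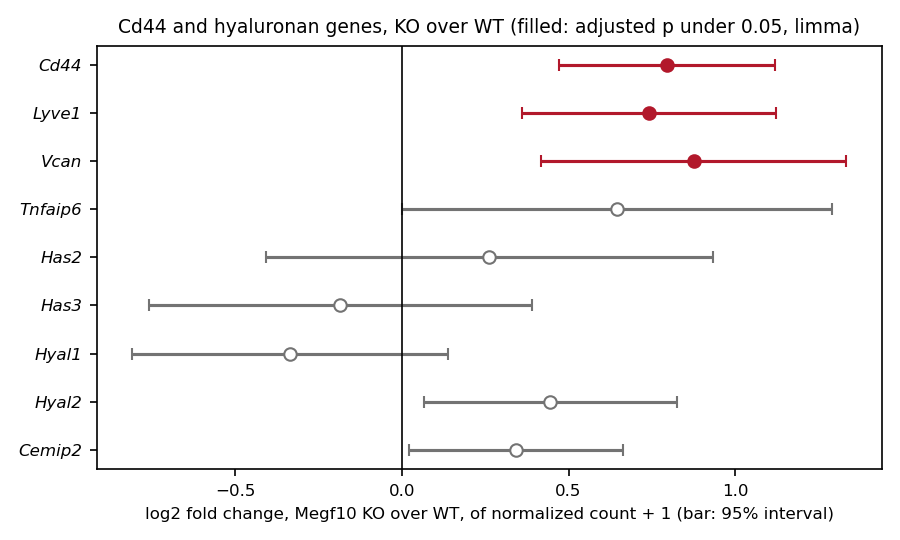
Log2 fold change of KO over WT for the 9 genes (x axis, on log2(normalized count + 1)) with its 95% interval, not adjusted for the number of genes. Filled points (Cd44 0.79, Lyve1 0.74, Vcan 0.88) have an adjusted p under 0.05, and the open points for Has3 and Hyal1 lie below 0.

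Tnfaip6, which encodes the secreted protein TSG-6 that crosslinks hyaluronan and is induced in inflammation, did not pass. It had 45.7, 89.9, 60.1 and 62.6 normalized counts across KO replicates 1 to 4, and 41.2, 53.1, 45.3 and 25.1 across WT replicates 1 to 4. KO replicates 2 to 4 lay above the highest WT library, and KO replicate 1 lay within the WT range. Its log2 fold change was 0.65 (SE 0.291, 95% interval 0.00 to 1.29, limma's adjusted p = 0.195; exact permutation p = 0.0571).

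The synthases did not pass. Has2, the synthase that makes long chains and the one needed in development, had 40.5, 27.5, 27.5 and 46.8 normalized counts across KO replicates 1 to 4, against 21.9, 23.7, 30.5 and 42.7 across WT replicates 1 to 4. The groups overlapped, and replicate 4 was the highest library of both. Its log2 fold change was 0.26 with a 95% interval of -0.41 to 0.93 (limma's adjusted p = 0.637). Has3, which makes shorter chains, had 44.8, 39.3, 74.4 and 68.9 across KO replicates 1 to 4, against 77.6, 57.5, 67.1 and 50.9 across WT replicates 1 to 4. KO replicates 1 and 2 were the lowest of the 8 libraries, and the other KO libraries lay within the WT range. The log2 fold change of Has3 was -0.19 (95% interval -0.76 to 0.39, limma's adjusted p = 0.705). The interval of Has2 still holds a rise as large as that of Cd44, while that of Has3 ends well below it. Exons of Has2 and Has3 overlap those of Has2os and Chtf8 on the other strand in GENCODE M21, as those of Cemip2 do with AC148016.1, and whether the counting used strand was not given in the sources used here.

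Of the genes that degrade hyaluronan, 2 leaned higher and 1 lower, and none passed. Hyal2, the hyaluronidase anchored at the cell surface, had 525, 445, 478 and 732 normalized counts across KO replicates 1 to 4, against 323, 357, 474 and 433 across WT replicates 1 to 4. KO replicates 1, 3 and 4 exceeded the highest WT library, KO replicate 3 by little, and KO replicate 4 stood highest. The log2 fold change of Hyal2 was 0.45 (SE 0.172, 95% interval 0.06 to 0.83, limma's adjusted p = 0.134; exact permutation p = 0.0571). Cemip2, a transmembrane protein described as a cell surface hyaluronidase in mouse, had 542, 515, 505 and 426 across KO replicates 1 to 4, against 485, 424, 305 and 370.1 across WT replicates 1 to 4. KO replicate 4 was the sole KO library within the WT range. The log2 fold change of Cemip2 was 0.34 (SE 0.146, 95% interval 0.02 to 0.66, limma's adjusted p = 0.171; exact permutation p = 0.0571).

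Hyal1, the lysosomal hyaluronidase, went the other way in 3 of 4 KO libraries. It had 223, 144, 135 and 128 normalized counts across KO replicates 1 to 4, against 168, 163, 197 and 263 across WT replicates 1 to 4. KO replicates 2 to 4 lay below the lowest WT library, while KO replicate 1 was second only to WT replicate 4. Over all libraries the log2 fold change was -0.34 (SE 0.214, 95% interval -0.81 to 0.14, limma's adjusted p = 0.362), and without KO replicate 1 it was -0.51 (adjusted p = 0.132). With depth as a covariate its sign turned, to 0.13 (limma's adjusted p = 0.909). Exons of Hyal1 overlap those of Hyal3 and Naa80 on the same strand in GENCODE M21, so its share of reads is less certain.

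The libraries that led differed from gene to gene. Among KO libraries Cd44 and Tnfaip6 were highest in replicate 2, Vcan and Has3 in replicate 3, Lyve1, Has2 and Hyal2 in replicate 4, and Hyal1 and Cemip2 in replicate 1. Among genes with at least 100 normalized counts on average, 10800 were compared with Cd44 by Pearson correlation over the 8 libraries, with no test. The 5 most like it were Ifngr2 (r = 0.976), a subunit of the interferon gamma receptor, Eif1a (0.973), a translation initiation factor, the predicted gene Gm46223 (0.971), Suox (0.968), the sulfite oxidase of mitochondria, and Arhgef19 (0.964). Each was itself called higher in KO, so the difference between genotypes is part of these values. Within genotype, after removal of each group mean, r was 0.81 to 0.89. The 5 genes were picked by r over the same 8 libraries, so this range is no separate check of the likeness. Arhgef19 had 221, 223, 214 and 118 normalized counts across KO replicates 1 to 4, against 31.2, 38.1, 39.5 and 42.6 across WT replicates 1 to 4, and like Cd44 was lowest of the KO libraries in replicate 4.

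**Figure D3:**
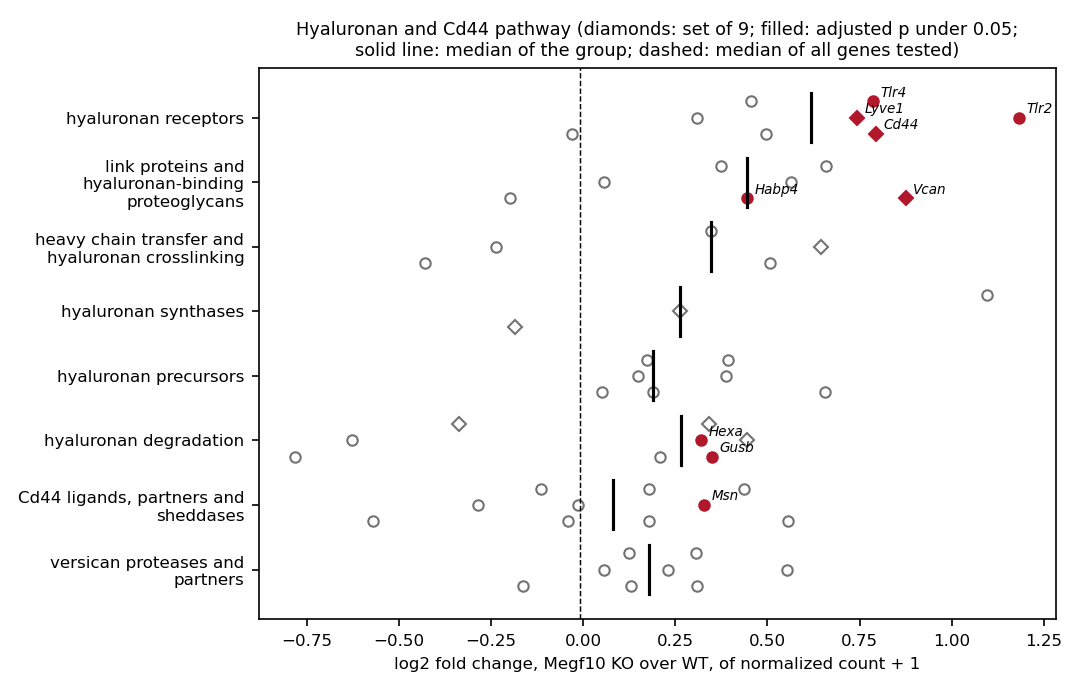
Log2 fold change of KO over WT (x axis, on log2(normalized count + 1)) for 56 genes of the hyaluronan and Cd44 pathway in 8 groups, with diamonds for the 9 genes of the set and circles for the others. Filled points are the 9 genes with an adjusted p under 0.05, all on the right of 0, the solid lines are group medians (0.08 to 0.62) and the dashed line is the median of all genes tested (-0.01).

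A wider list of 63 genes for hyaluronan and CD44 biology held 56 that were measured. Of these, 9 were higher in KO, 0 were lower and 47 did not pass, beside 5.16% of all genes called higher. The median log2 fold change of the list was 0.31, against -0.01 over all genes tested. Of the list 42 of 56 genes lay above 0, beside 8031 of all 16382. The list was drawn up with earlier results of these data known. Leaving out the 9 genes described above, 6 of 47 were higher and the median was 0.23. These 6 were Tlr4, Habp4, Tlr2, Msn, Hexa and Gusb.

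Among receptors 4 of 8 were called, and beside Cd44 and Lyve1 these were Tlr4 and Tlr2, innate receptors that respond to microbial products and, by many accounts, to hyaluronan fragments. Tlr4 had 544, 593, 561 and 604 normalized counts across KO replicates 1 to 4, against 319, 335, 376 and 306 across WT replicates 1 to 4. Its groups were far apart, with a log2 fold change of 0.79 (SE 0.0978, limma's adjusted p = 0.00183). It passed in each of the 8 fits without 1 library and without KO replicates 2 and 3 together, but not with depth as a covariate (log2 fold change 0.76, SE 0.168, limma's adjusted p = 0.103). Tlr2 had 222, 112, 156 and 143 normalized counts across KO replicates 1 to 4, against 67.6, 83.3, 53.2 and 67.8 across WT replicates 1 to 4, a log2 fold change of 1.18 (SE 0.229, limma's adjusted p = 0.0115). KO replicate 1 was the highest and KO replicate 2 the lowest of its KO libraries, and no KO library lay within the WT range. Stab1 and Stab2, scavenger receptors also listed in this group, had log2 fold changes of 0.31 and 0.46 (limma's adjusted p = 0.291 and 0.194).

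Msn encodes moesin, which ties the tail of CD44 to actin, and its groups did not overlap. It had 3191, 3505, 3428 and 3523 normalized counts across KO replicates 1 to 4, against 2755, 2524, 2681 and 2910.4 across WT replicates 1 to 4, a log2 fold change of 0.33 (SE 0.0650, limma's adjusted p = 0.0125). The related linkers ezrin (Ezr, 0.44, limma's adjusted p = 0.145) and radixin (Rdx, -0.12, limma's adjusted p = 0.193) did not pass, although the values of Rdx were lower in KO with no overlap. Spp1, which encodes the CD44 ligand osteopontin, had 327, 228, 221 and 235 across KO replicates 1 to 4, against 130, 165, 169 and 225 across WT replicates 1 to 4. KO replicate 3 at 221 lay below WT replicate 4 at 225, and Spp1 did not pass (log2 fold change 0.56, limma's adjusted p = 0.0932). None of the sheddases Adam10, Adam17, Mmp14 and Mmp9, which cut CD44 or its matrix, was called.

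Habp4, an intracellular protein named for hyaluronan binding that also binds RNA, had 1756, 1672, 1849 and 1685 normalized counts across KO replicates 1 to 4, against 1235, 1393, 1362 and 1136.5 across WT replicates 1 to 4. Its groups were separate, and its log2 fold change was 0.44 (SE 0.0807, limma's adjusted p = 0.00860). Hexa and Gusb, lysosomal enzymes that trim hyaluronan fragments and other sugar chains, did not overlap between groups and had log2 fold changes of 0.32 and 0.35 (limma's adjusted p = 0.0235 and 0.0390). Hexa lay at 2321 to 2744 normalized counts in KO and 1873 to 2124 in WT, and Gusb at 806 to 958 in KO and 641 to 729 in WT. Hexa lost its call in the fits without KO replicate 1, KO replicate 3, KO replicate 4, WT replicate 2 and WT replicate 4 (adjusted p up to 0.0634). Calls higher in KO were also made for 7 of 10 macrophage, 4 of 5 adipocyte and 3 of 10 fibroblast and progenitor markers. The same held for 1 of 5 tendon cell and 1 of 8 fiber markers, and for 5.16% of all genes. Calls lower in KO fell on 2 of 8 fiber, 2 of 7 blood endothelium and 1 of 6 satellite cell markers, and on 3.79% of all genes. These markers were not compared library by library with Habp4, Tlr2, Tlr4, Msn, Hexa and Gusb. The part of such cells was not tested. Gusb passed in 1 of the 8 fits without 1 library, that without WT replicate 1 (adjusted p up to 0.0922 over these 8 fits). Msn, Habp4, Tlr2, Hexa and Gusb did not pass with depth as a covariate or without KO replicates 2 and 3 together. With depth in the fit the log2 fold change was 0.20 for Msn, 0.53 for Habp4, 1.72 for Tlr2, 0.36 for Hexa and 0.37 for Gusb, each with a larger SE. With no variance trend Msn, Hexa and Gusb did not pass either (limma's adjusted p = 0.0551, 0.0760 and 0.0776).

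The supply side of hyaluronan showed no call. All 7 measured genes for its sugar nucleotide precursors had a log2 fold change above 0, with a median of 0.19, and none passed. Gfpt2, which makes glucosamine phosphate, came nearest, with 441, 529.6, 581 and 752 normalized counts across KO replicates 1 to 4, against 420.5, 437, 267 and 335 across WT replicates 1 to 4 (log2 fold change 0.66, limma's adjusted p = 0.0569). Its groups did not overlap, but KO replicate 1 lay close to WT replicate 2. Has1, the remaining synthase, had 36.9, 73.3, 28.3 and 36.4 across KO replicates 1 to 4, against 42.1, 26.8, 11.5 and 8.85 across WT replicates 1 to 4, and did not pass (log2 fold change 1.10, SE 0.487, limma's adjusted p = 0.189). Of the 8 versican proteases and partners none passed, and Fbln2, a fibulin that binds versican, had a log2 fold change of 0.31 (limma's adjusted p = 0.0697). Spam1, Acan, Bcan, Hapln2, Itih1, Itih3 and Ambp had no row in the tables used here.

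**Figure D4:**
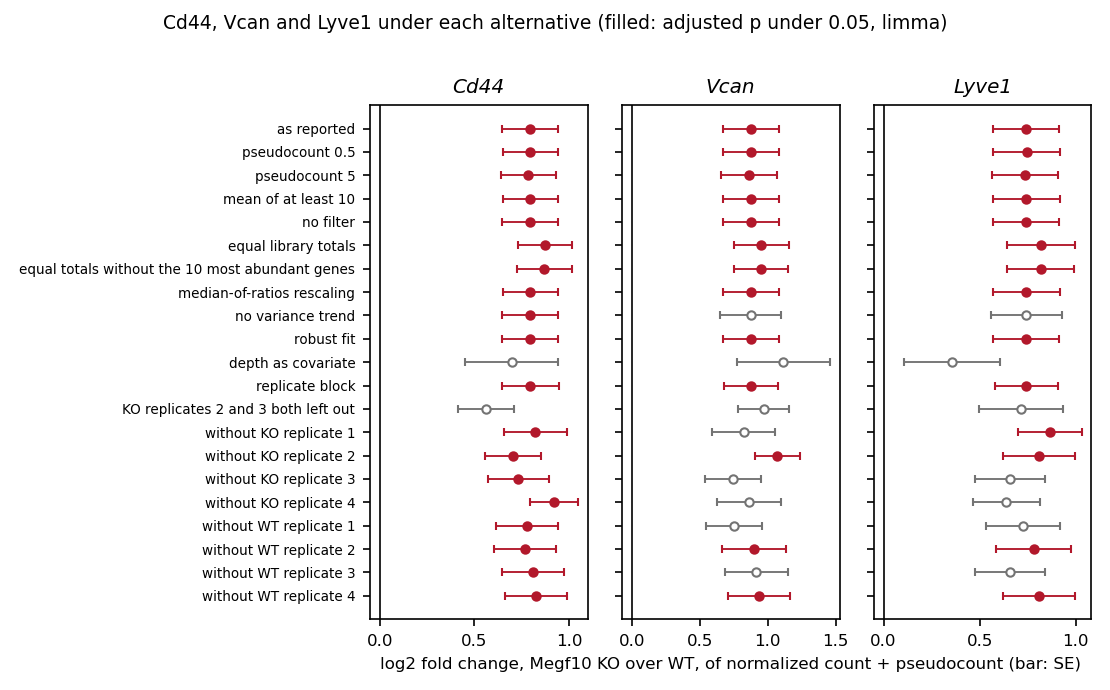
Log2 fold change of KO over WT with its SE (x axis) for Cd44, Vcan and Lyve1 as reported and under 20 alternatives (y axis). Each estimate lies above 0, and filled points mark an adjusted p under 0.05, with Cd44 called in 18 of 20 alternatives, Lyve1 in 13 and Vcan in 12. The alternative with no filter tested the same genes and could not differ from the reported fit.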

How the data were processed

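RNA of whole soleus muscles (4 from KO, 4 from WT females) was sequenced after poly(A) selection, with 1 library per mouse. Per the study's methods and the submitters' processing notes, reads were trimmed with Trimmomatic, checked with FastQC and MultiQC and quantified with Salmon on GRCm39, transcripts were summed to genes with tximport, counts of 5 or less were left out, and DESeq2 normalized the genes. The signal per library deposited by the authors is these normalized gene counts, which are not whole numbers. Another deposited table holds the authors' DESeq2 comparison (means, fold changes, statistics, p-values) and was not used. A line without a gene name, 0.0112 to 0.0150% of each library, was left out.

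Genes with a summed value above 5 (all 16382) were tested with limma 3.58.1 in R 4.3.3 on log2(normalized count + 1), with genotype as the sole term, a prior variance that follows expression and Benjamini-Hochberg adjustment over all genes. This scale understates fold changes of low genes. Values scale with transcript length, so levels were not compared between genes, except for the parts of genes in summed marker levels. Those sums are weighted by transcript length as well. Single genes were also tested with an exact permutation test over all 70 assignments of 4 of 8 libraries. The test was checked on simulated data with independent genes and no difference in depth between groups. That check therefore does not bear on the link of depth with genotype. Depth was recovered from values up to 60, of which 17.8 to 37.2% were whole reads at a tolerance of 0.01 reads, too few for a count test. Plots were made with Python 3.11.15 and matplotlib 3.10.9.

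All 9 genes of the set are named, with called genes of the wider list (at most 12), the 5 genes most like Cd44 and Megf10. Other genes of the lists were named after their values were seen. The genes, lists and tests were chosen with earlier results of these data known. Alternatives covered pseudocounts, filters, scaling, the prior variance, a stricter threshold, depth, the replicate number as a block, and libraries left out.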

Additional observations from a re-analysis of the deposited data

Results flagged for a closer look

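Hyal1 in KO replicate 1 stood far from the other libraries of its group, at 223 normalized counts, against 128 to 144 in KO replicates 2 to 4. Of 32 groups of 4 libraries looked at this way (16 genes in each genotype), this was the 1 that stood out, and chance alone gives about 1 in 20. KO replicate 1 was also the KO library with the greatest depth, at 37.8 M reads against 26.0 to 26.4 M, and the part of depth in this value was not tested.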

How the results depend on the processing

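Of the 20 alternative fits, Cd44, Lyve1 and Vcan kept a log2 fold change above 0 in each, and Cd44 was called in 18, Lyve1 in 13 and Vcan in 12. The fit with no filter is 1 of the 20, and it could not differ from the reported fit, since all genes passed the filter. For the 16 genes followed, 274 of 320 values kept direction and side of the threshold, 45 lost a call and 1 turned, that of Hyal1 with depth as a covariate (log2 fold change 0.13). Values of the 6 genes of the set that were not called count as kept where they stayed uncalled. The number of the 9 genes called, 3, was 1 with no variance trend and at an adjusted p under 0.01, 0 with depth as a covariate, 0 without KO replicates 2 and 3 together, and 1 to 3 with any 1 library left out. For the wider list, 9 called genes became 4 with no variance trend, 3 at an adjusted p under 0.01, 0 with depth, 1 without KO replicates 2 and 3, and 5 to 9 with 1 library left out. Over all genes 1466 calls became 819 with no variance trend, 440 at an adjusted p under 0.01, 58 with depth, 164 without KO replicates 2 and 3, and 662 to 1231 with 1 library left out. With depth in the fit standard errors were larger by a median factor of 1.68, and without KO replicates 2 and 3 by 1.26, so precision was lower there, and the cause of the lost calls was not tested. Over all genes 845 calls were higher and 621 lower, and with equal library totals 1279 and 321, or with totals taken without the top 10 genes 1244 and 333, while the 3 genes called in the set stayed Cd44, Vcan and Lyve1. The replicate numbers did not pair the libraries (correlations of same-numbered libraries -0.01 to 0.03), and a fit with this number as a replicate block called 3 of 9 genes, 8 of 56 (Gusb was lost, adjusted p = 0.0619 from limma) and 1278 of all genes.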
